A study of Mus musculus with 10 samples.

Results

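Hepatokines are proteins that the liver releases into the blood and that act on other organs, and activins are signalling proteins of the TGF-beta family, several of whose subunits are made mainly in liver. The 9 genes described here encode such proteins or a regulator of them, namely *Fgf21*, *Angptl4*, *Ahsg*, *Fetub*, *Inhba*, *Inhbc*, *Inhbe*, *Lect2* and *Fst*. They were chosen by symbol, with earlier results of these data known. All 9 were among the 15126 genes of the expression table. They also all passed the filter on low levels that left 11027 genes to test, which is a mean level of 1 CPM or more, where CPM are a gene's reads scaled to the total counted on genes.

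The livers came from *db/db* mice, which lack a working leptin receptor and become obese and diabetic. Each mouse received adeno-associated virus of serotype 8 (AAV8), which transduces mainly hepatocytes after tail-vein injection. The virus encoded eGFP in the 5 AAV8-Control livers and a transgene in the 5 livers called treated here. Both groups thus carry the leptin receptor deficiency and a virus, and no lean or uninjected liver is compared here. Livers were taken at an age of 10 weeks and 5 weeks after the virus. The promoter that drives the transgene is not given in the sources used here. The labels number the libraries without naming animals, so the p-values measure the spread between these libraries. Some of the labels' protocols describe cultured hepatocytes and adenovirus instead, whereas the tissue label, the design text and the study's methods describe liver and AAV8.

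The libraries held 19499795 to 35498596 reads on genes in AAV8-Control and 21656201 to 26124038 in treated livers, so that 1 read was worth 0.0282 to 0.0513 CPM. RNA of several cell types was present, as liver tissue would give. Summed markers of hepatocytes were at 94245 to 128597 CPM over all libraries, those of Kupffer cells and macrophages at 130.4 to 264 CPM and those of stellate cells and fibroblasts at 217 to 315 CPM. The groups overlapped for all 9 marker lists examined. The lowest p was 0.0556 for lymphocytes, at 3.62 to 6.98 CPM in controls against 3.43 to 4.53 CPM in treated livers (two-sided exact permutation test). Adipocyte markers had a p of 0.0635 by the same test and reached 11.2 CPM in AAV8-Control replicate 1, with *Adipoq* and *Lep* at 0 in some libraries. In whole tissue, fewer cells of a type and less RNA per cell cannot be told apart.

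The proteins differ in what they do. FGF21 signals through FGF receptors together with the coreceptor beta-Klotho, and ANGPTL4 inhibits lipoprotein lipase, the enzyme that releases fatty acids from circulating triglyceride. *Ahsg* and *Fetub* encode fetuin-A and fetuin-B, abundant plasma proteins of the cystatin superfamily. LECT2 is a secreted liver protein linked to insulin resistance in muscle. *Inhba*, *Inhbc* and *Inhbe* encode the beta A, beta C and beta E subunits whose dimers form activins, and follistatin, from *Fst*, binds and neutralises activins. Activins act through type I and type II receptors and SMAD proteins.

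Sequence upstream of the genes is shown for *Inhbc*, the member that separated the groups, and for *Fgf21*, the one that varied most between livers. RefSeq windows, on GRCm38.p6, matched 7 of the 9 genes, with 8 windows in all, and the 250 bases before each start were read. The capitals mark TTGCATCA, the reverse complement of TGATGCAA, a composite element that ATF4 and C/EBP proteins can bind. ATF4 is the transcription factor of the amino acid and stress response, and *Fgf21* is a known target of it. The *Inhbc* window lies at chr10:127370549-127370798 and the *Fgf21* window at chr7:45615491-45615740, both on the reverse strand.
Inhbc: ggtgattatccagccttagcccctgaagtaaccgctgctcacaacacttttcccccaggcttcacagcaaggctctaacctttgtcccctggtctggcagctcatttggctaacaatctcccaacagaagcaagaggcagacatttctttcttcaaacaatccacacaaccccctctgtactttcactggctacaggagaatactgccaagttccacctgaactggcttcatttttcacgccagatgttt
Fgf21: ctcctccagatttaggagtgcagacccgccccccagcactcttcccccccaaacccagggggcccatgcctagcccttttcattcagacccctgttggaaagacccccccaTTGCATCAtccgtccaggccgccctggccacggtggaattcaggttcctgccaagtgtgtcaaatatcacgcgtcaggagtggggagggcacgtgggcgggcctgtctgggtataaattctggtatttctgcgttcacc

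The element was in 2 of the 8 windows, those of *Fgf21* and *Inhbe*, and in 0.791% of all 32851 windows, searched on both strands. It began 139 bases before the start of *Fgf21* and 181 bases before the RefSeq start of *Inhbe*, whose window lies within the first exon that GENCODE gives that gene. The 30 bases around each match, at chr7:45615611-45615640 and chr10:127352011-127352040 on the reverse strand, are set side by side.
Fgf21: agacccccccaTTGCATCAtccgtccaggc
Inhbe: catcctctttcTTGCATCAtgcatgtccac
Of the other motifs searched on both strands, the E-box CACGTG was found in the *Fgf21* window (6.02% of all windows), and TATAAA in those of *Fgf21*, *Inhba* and *Fetub* (12.4% of all windows). The *Fetub* match began 31 bases before the RefSeq start, within the last 48 bases of its window, which lie in an exon that GENCODE gives that gene. The forkhead site GTAAACA was in a *Fetub* window (3.17% of all windows). TGACGTCA and GTCTAGAC were in none of the 8 windows, and in 1.55% and 0.167% of all windows. No motif overlapped another in the *Fgf21* window. These matches describe letters in these windows and no binding.

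The members spanned a wide range of levels, which are compared here per kilobase of exon (CPM per kb, exons from GENCODE release M21). *Ahsg* ranked 23 among the 11022 tested genes with a length, at 2088 ± 363 CPM per kb in AAV8-Control and 2321 ± 184 CPM per kb in treated livers (SD, 5 livers each). *Fetub* (rank 267) and *Lect2* (rank 291) followed, at 153 ± 17.7 and 151 ± 23.9 CPM per kb in AAV8-Control, and their ranges over the 10 livers overlapped. *Angptl4* (rank 1327), *Inhbc* (rank 1331) and *Inhbe* (rank 1648) were at 25.7 ± 4.08, 27.1 ± 1.19 and 20.4 ± 2.03 CPM per kb in AAV8-Control, again with overlapping ranges over the 10 livers. *Fgf21* was far lower, at 0.347 to 4.62 CPM per kb over the 10 livers (rank 6943). *Fst* (rank 10130) and *Inhba* (rank 10191) were near 0.4 CPM per kb and overlapped each other, and the lowest *Fgf21* value lay within the range of *Fst*. The hepatocyte-enriched subunits *Inhbc* and *Inhbe* were thus both well above *Inhba*, with no overlap of levels per kb in any liver. Length of exon is uncertain for *Inhbe*, as GENCODE starts the gene upstream of RefSeq.

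**Figure D1:**
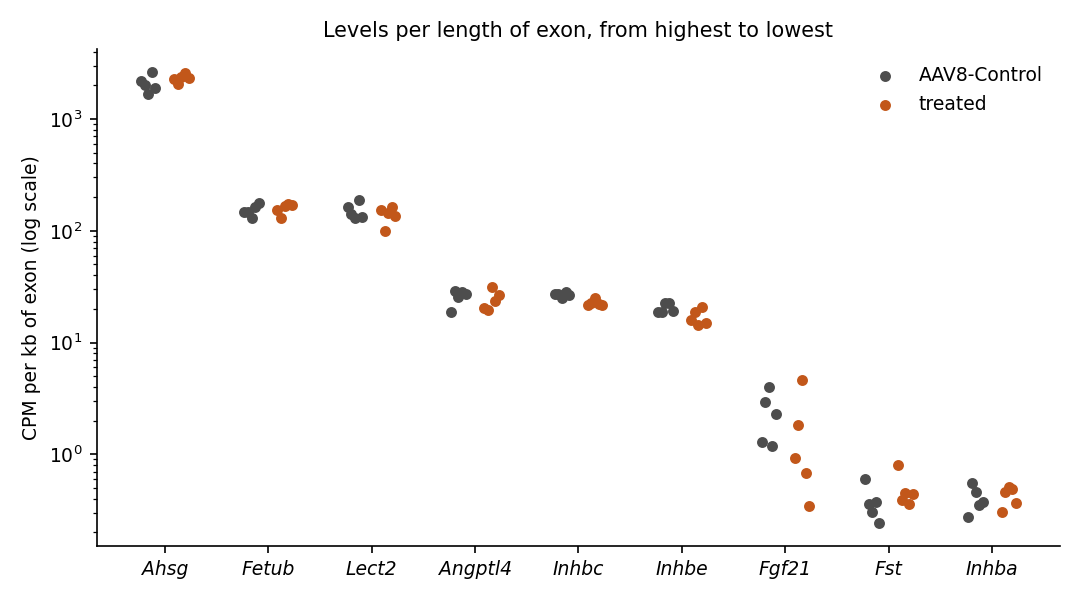
Level of each gene in CPM per kb of exon, on a log scale, with 1 point per liver (5 AAV8-Control in grey, 5 treated in orange) and genes ordered by mean. *Ahsg* is highest, *Fetub* and *Lect2* overlap, as do *Angptl4*, *Inhbc* and *Inhbe*, and *Fst* and *Inhba* are lowest.

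The treated livers were compared with AAV8-Control to see which of these secreted factors differ between the viruses. *Inhbc* was the member that separated the groups, with every treated liver below every AAV8-Control liver and a mean 16.4% lower. *Inhbe*, its neighbour on chromosome 10, was lower by a similar share with some overlap, and the other 7 members overlapped between the groups. None of the 9 passed an adjusted p of 0.05 in limma (Benjamini-Hochberg over all 11027 genes, lowest adjusted p 0.617), a threshold that 2 genes or 0.0181% of all tested genes passed. On the recovered reads, edgeR and limma voom also called 0 members (0.0181% of genes each), and DESeq2 called 1 member, *Inhbc* (0.154% of genes). DESeq2 gave no adjusted p to *Fgf21*, *Inhba* and *Fst*, and its share counts all 11027 tested genes, with or without one. At an unadjusted limma p under 0.05 there were 2 members, both lower, which were *Inhbc* and *Inhbe*, against a background of 7.95% of all tested genes in either direction, 2.97% lower and 4.99% higher. The groups did not overlap for 1 member, which was lower, against a background of 0.435% of all genes lower and 0.472% higher. On log2(CPM + 1), 4 members were higher and 5 lower, with a median log2 fold change of -0.08 against 0.02 over all tested genes.

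**Figure D2:**
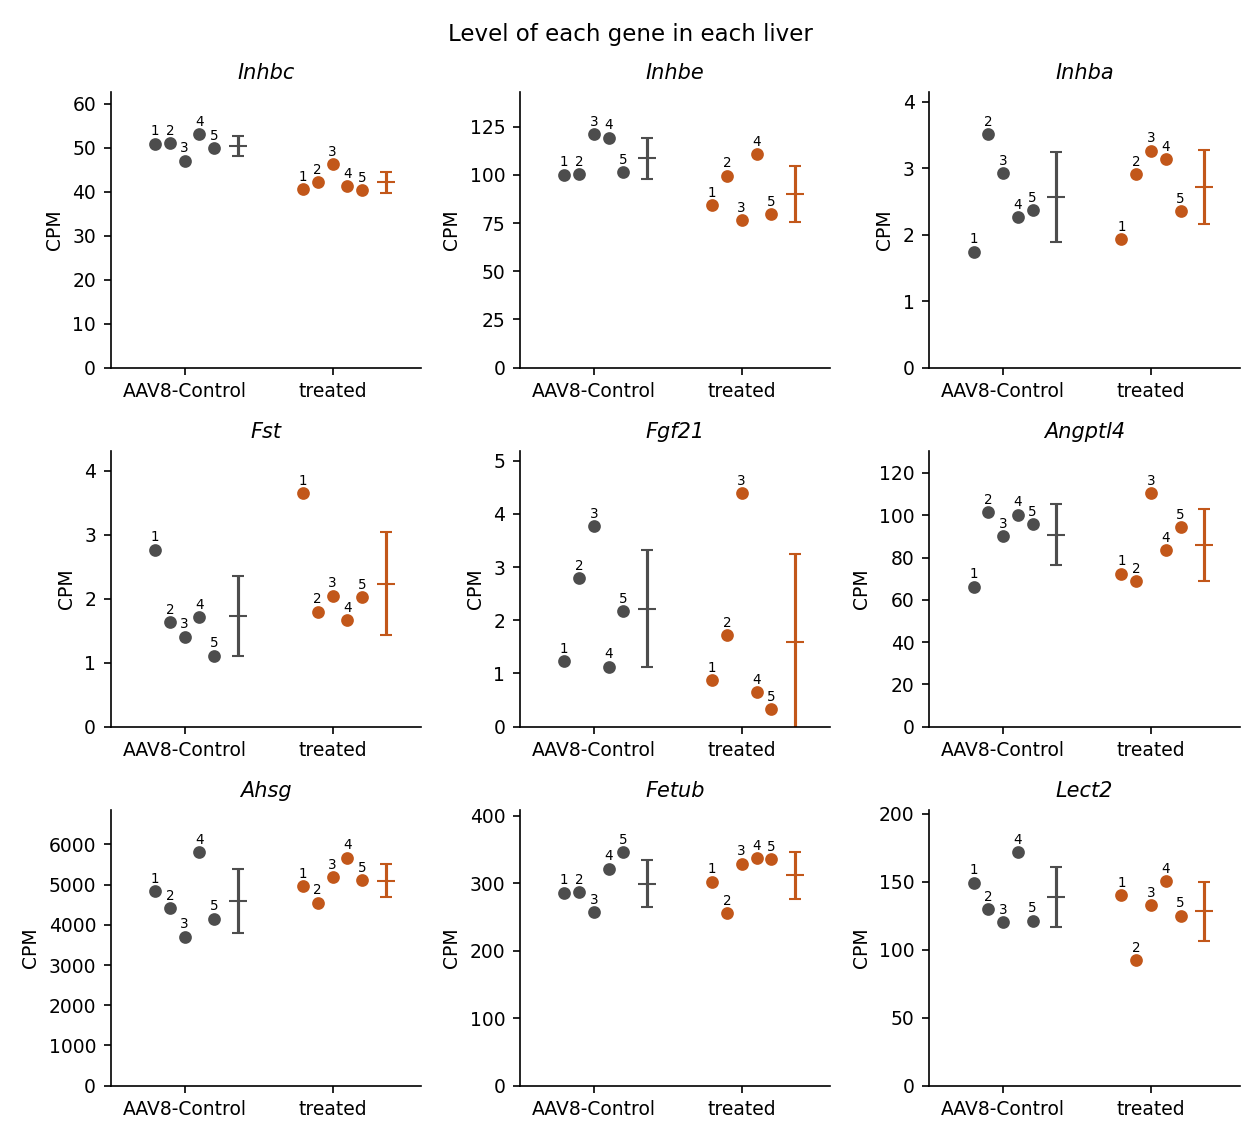
Level of each gene in CPM (linear axes from 0) in each liver, numbered by replicate, with the mean and SD beside each group (n = 5). The SD of *Fgf21* in treated livers exceeds its mean and its bar stops at the axis. The groups are apart for *Inhbc* only.

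*Inhbc* (ENSMUSG00000025405, chr10:127356322-127370431, reverse strand of GRCm38) encodes activin beta C, which is made largely by hepatocytes. The AAV8-Control livers 1 to 5 were at 50.9, 51.0, 47.0, 53.1 and 49.9 CPM. The treated livers 1 to 5 were at 40.5, 42.2, 46.2, 41.2 and 40.4 CPM. The groups do not overlap, although treated replicate 3, the highest of its group, lay close to AAV8-Control replicate 3, the lowest of the controls.

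The mean of *Inhbc* was 50.4 ± 2.22 CPM in AAV8-Control against 42.1 ± 2.41 CPM in treated livers (SD, n = 5 livers each). Its log2 fold change was -0.25 (standard error 0.061, 95% interval -0.39 to -0.12). The p was 0.00794 by a two-sided exact permutation test, which is the smallest that the 252 assignments allow. In limma, *Inhbc* had an unadjusted p of 0.00116, the 14th smallest of 11027 genes (rank 14), and an adjusted p of 0.617. The adjusted p ranged from 0.0114 in the Wald test of DESeq2, run on recovered reads, to 0.970 in the fit without treated replicate 5. Leaving out single livers kept the log2 fold change between -0.29 and -0.24. *Inhbc* also had the smallest relative spread of the 9 genes, with a coefficient of variation of 4.4% in AAV8-Control and 5.73% in treated livers. Counting error alone would give an SD of 1.47 and 1.33 CPM. An antisense gene, *Gm47200*, shares 268 of the 1859 exon bases of *Inhbc* (14.4%), and the library preparation did not mark strand, so reads of these genes cannot be told apart there.

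*Inhbe* (ENSMUSG00000047492, chr10:127348857-127354411, reverse strand) encodes activin beta E, another hepatocyte product. It lies 1910 bases from *Inhbc* and is read from the same strand, and the antisense gene *Gm47200* overlaps both, sharing 0 exon bases with *Inhbe*. The AAV8-Control livers 1 to 5 were at 100.2, 100.4, 121, 119 and 101 CPM, and the treated livers at 84.4, 99.6, 76.6, 111 and 79.7 CPM. Treated replicate 4 lay within the control range, and the other 4 treated livers lay below every control.

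The mean of *Inhbe* was 109 ± 10.8 CPM in AAV8-Control against 90.2 ± 14.5 CPM in treated livers (SD, n = 5 livers each), 16.9% lower. Its log2 fold change was -0.27 (standard error 0.11, 95% interval -0.50 to -0.05), with an unadjusted p of 0.0227 and an adjusted p of 0.617 from limma. The two-sided exact permutation p was 0.0556. The unadjusted p from limma rose above 0.05 without treated replicate 3 (0.0634), treated replicate 5 (0.0570), AAV8-Control replicate 3 (0.0586) or AAV8-Control replicate 4 (0.0554). Without treated replicate 4, the only treated liver within the control range, the groups no longer overlapped. The gap then left, from 99.6 to 100.2 CPM, was smaller than the SD from counting error alone (2.13 CPM in AAV8-Control and 1.96 CPM in treated livers). Although the 2 subunits were lower by a similar share on average, a correlation between livers of a group was not detected (Pearson's r = -0.30 over 10 livers after the group means were removed, exact permutation p = 0.486, adjusted p = 0.745). Spearman's rho was -0.39 (exact permutation p = 0.301), and r turned to 0.27 without AAV8-Control replicate 3 and treated replicate 3, the livers farthest from the median of *Inhbc*.

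*Inhba* (ENSMUSG00000041324, chr13:16011851-16031621, forward strand) encodes activin beta A, the subunit of activin A. It was low, at 34 to 104 reads per library. The AAV8-Control livers 1 to 5 were at 1.74, 3.51, 2.93, 2.26 and 2.37 CPM, and the treated livers at 1.94, 2.91, 3.26, 3.14 and 2.35 CPM. The ranges almost coincide, and replicate 1 was the lowest of either group. The means were 2.56 ± 0.679 and 2.72 ± 0.560 CPM (SD, n = 5 livers each), which differ by less than the SD of either group (log2 fold change 0.07, 95% interval -0.25 to 0.39, exact permutation p = 0.683). Without AAV8-Control replicate 1 the log2 fold change of *Inhba* was -0.02, and without AAV8-Control replicate 2 it was 0.16.

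*Fst* (ENSMUSG00000021765, chr13:114452290-114458951, reverse strand), the activin antagonist follistatin, was as low, at 23 to 83 reads per library. The AAV8-Control livers 1 to 5 were at 2.77, 1.64, 1.41, 1.71 and 1.11 CPM, and the treated livers at 3.65, 1.80, 2.05, 1.66 and 2.02 CPM. All 5 treated livers lay above the control median of 1.64 CPM, but the lowest of them was at 1.66 CPM. That gap is smaller than the SD from counting error alone (0.274 CPM in AAV8-Control and 0.308 CPM in treated livers). Replicate 1 was the highest of each group by a wide margin. The means were 1.73 ± 0.627 and 2.24 ± 0.807 CPM (SD, n = 5 livers each). The log2 fold change of *Fst* was 0.24 (standard error 0.18, 95% interval -0.14 to 0.63, exact permutation p = 0.262). Without AAV8-Control replicate 1 it was 0.37, with an unadjusted p of 0.0431 and an adjusted p of 0.496 from limma. Without treated replicate 1 it was 0.11. In edgeR, DESeq2 and limma voom on the recovered reads it was 0.38 (unadjusted p = 0.193, 0.187 and 0.156). An antisense gene, *Gm47040*, shares 115 of the 4589 exon bases of *Fst*.

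*Fgf21* (ENSMUSG00000030827, chr7:45613886-45615490, reverse strand) encodes a hormone that the liver releases in fasting and in stress. The AAV8-Control livers 1 to 5 were at 1.23, 2.79, 3.77, 1.13 and 2.17 CPM. The treated livers 1 to 5 were at 0.88, 1.72, 4.39, 0.646 and 0.33 CPM. Treated replicate 3 was the highest of all 10 livers, whereas 3 of the other 4 treated livers lay below every control.

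The mean of *Fgf21* was 2.22 ± 1.11 CPM in AAV8-Control against 1.59 ± 1.65 CPM in treated livers (SD, n = 5 livers each), with coefficients of variation of 49.9% and 103%, the widest of the 9 genes. Only 8 to 134 reads per library gave these values, and counting error alone would give an SD of 0.300 and 0.258 CPM. The log2 fold change was -0.43 (standard error 0.34, 95% interval -1.18 to 0.31), with an unadjusted p of 0.226 from limma and an exact permutation p of 0.325. The log2 fold change without treated replicate 3 was -0.75, with an unadjusted p of 0.0152 and an adjusted p of 0.715 from limma. Without treated replicate 5, the lowest liver, it was -0.24. It was -0.80 with a pseudocount of 0.1 in place of 1 (unadjusted p = 0.162 from limma). On the recovered reads it was -0.85 in limma voom, -0.54 in edgeR and -0.54 in DESeq2 (unadjusted p = 0.142, 0.345 and 0.423).

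*Angptl4* (ENSMUSG00000002289, chr17:33773750-33781830, reverse strand) was at 66.3, 101, 90.2, 100.3 and 95.9 CPM in the AAV8-Control livers 1 to 5. The treated livers were at 72.4, 68.7, 111, 83.6 and 94.5 CPM, and the groups overlapped throughout. The means were 90.8 ± 14.4 and 86.0 ± 17.1 CPM (SD, n = 5 livers each), with a log2 fold change of -0.08 (95% interval -0.39 to 0.22, exact permutation p = 0.627). The estimate was -0.01 without treated replicate 2 and -0.19 without AAV8-Control replicate 1.

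*Ahsg* (ENSMUSG00000022868, chr16:22891277-22899449, forward strand), the fetuin-A gene, was at 4844, 4420.1, 3709, 5811 and 4156 CPM in the AAV8-Control livers 1 to 5. The treated livers were at 4965, 4551, 5194, 5668 and 5118 CPM. All 5 treated livers lay above the control median, but AAV8-Control replicate 4 was the highest of all. The means were 4588 ± 798 and 5099 ± 403 CPM (SD, n = 5 livers each), 11.1% higher in treated livers. The log2 fold change was 0.16 (95% interval -0.10 to 0.43, exact permutation p = 0.206). Without AAV8-Control replicate 4 it was 0.26, with an unadjusted p of 0.0325 and an adjusted p of 0.563 from limma, and without AAV8-Control replicate 3 it was 0.09 (unadjusted p = 0.438 from limma). An antisense gene, *Gm30505*, shares 62 of its 2197 exon bases.

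*Fetub* (ENSMUSG00000022871, chr16:22918334-22939778, forward strand), the fetuin-B gene, lies 18884 bases from *Ahsg* on the same strand. It was at 286, 287, 258, 322 and 347 CPM in the AAV8-Control livers 1 to 5 and at 303, 255, 330, 338 and 336 CPM in the treated livers. The groups overlapped over nearly their whole range. The means were 299.8 ± 34.7 and 312 ± 34.7 CPM (SD, n = 5 livers each), with a log2 fold change of 0.06 (95% interval -0.15 to 0.27, exact permutation p = 0.571). It was 0.006 without AAV8-Control replicate 3 and 0.13 without treated replicate 2.

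*Lect2* (ENSMUSG00000021539, chr13:56542464-56548502, reverse strand) was at 149, 129.9, 120.0, 172 and 121 CPM in the AAV8-Control livers 1 to 5 and at 139.8, 92.4, 133, 150.3 and 125 CPM in the treated livers. Replicate 4 was the highest of each group, and treated replicate 2 was the lowest of all. The means were 138 ± 22.0 and 128 ± 22.0 CPM (SD, n = 5 livers each), with a log2 fold change of -0.12 (95% interval -0.40 to 0.17, exact permutation p = 0.508). Without treated replicate 2 it was -0.005, and without treated replicate 4 it was -0.18.

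**Figure D3:**
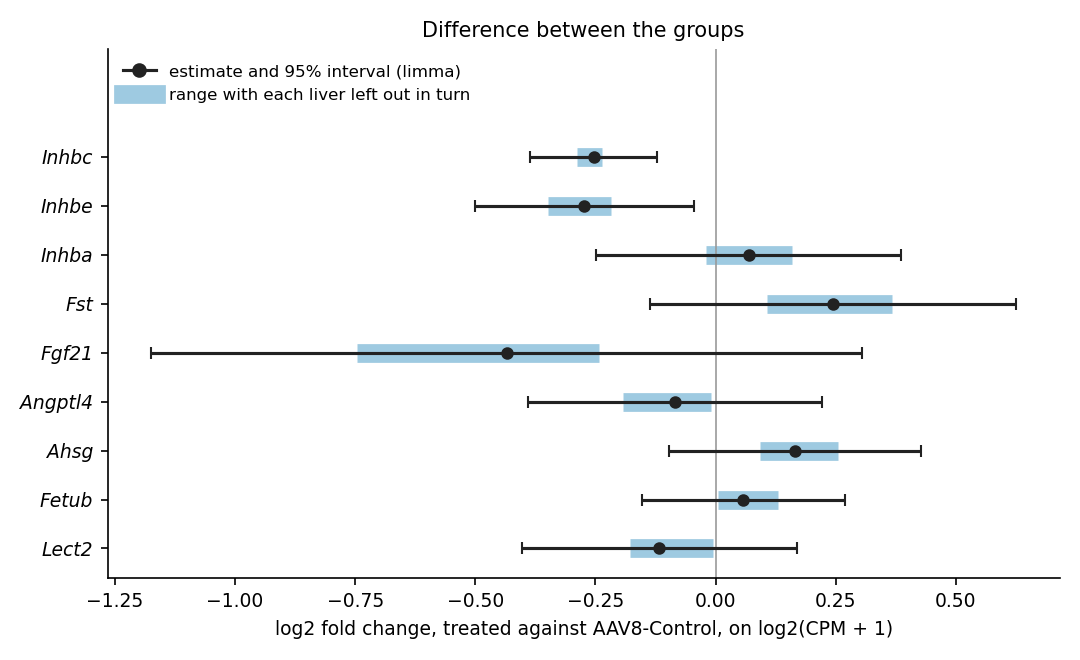
Log2 fold change of each gene, comparing treated livers and AAV8-Control on log2(CPM + 1), with the 95% interval from limma (black) and the range with each liver left out in turn (blue). The intervals of *Inhbc* and *Inhbe* lie below 0, the others include 0, and only *Inhba* changes direction when a liver is left out.

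Members were then compared with each other over the 10 livers, after each group's mean was removed, to see which levels vary together between livers of a group. Of the 36 pairs, 1 passed an adjusted p of 0.05 (Benjamini-Hochberg over the 36 exact permutation tests). This was *Ahsg* and *Lect2*, with Pearson's r = 0.84 (exact permutation p = 0.000556, adjusted p = 0.020) and Spearman's rho = 0.92 (exact permutation p = 0.00153). Without AAV8-Control replicates 3 and 4, the livers farthest from the median of *Ahsg*, r was 0.88. Both are abundant hepatocyte transcripts, and values of a library share its scaling, but the cause of the correlation was not tested. The next pair was *Inhba* and *Fst*, the activin A subunit and its antagonist, with r = -0.68 (exact permutation p = 0.0408, adjusted p = 0.54) and rho = -0.43 (exact permutation p = 0.249), and r was -0.69 without the 2 farthest livers. *Fgf21* and *Inhba* had r = 0.63 (exact permutation p = 0.0608, adjusted p = 0.54) and 0.56 without the 2 farthest livers. The neighbours *Ahsg* and *Fetub* had r = 0.54 (exact permutation p = 0.120, adjusted p = 0.54), which fell to 0.34 without the 2 farthest livers. *Fetub* and *Lect2* had r = 0.58 (exact permutation p = 0.108, adjusted p = 0.54), and r was -0.14 without the 2 farthest livers.

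**Figure D4:**
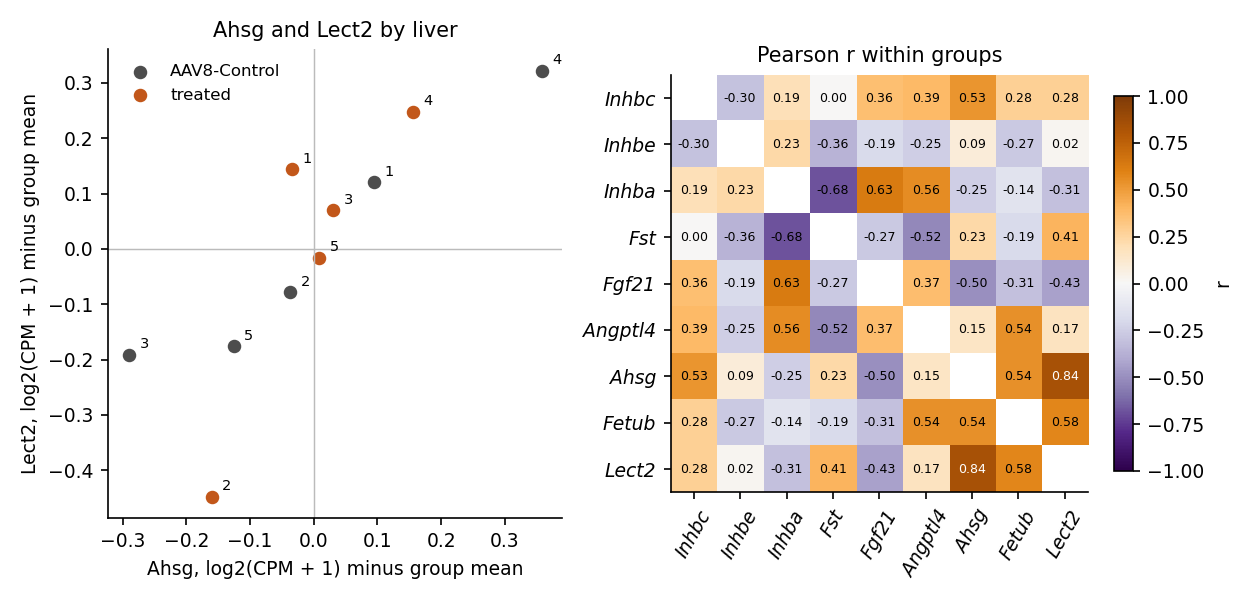
Left, *Ahsg* against *Lect2* in each liver on log2(CPM + 1) after the group mean was removed, numbered by replicate (5 AAV8-Control in grey, 5 treated in orange). Right, Pearson's r within groups for all 36 pairs of the 9 genes, with *Ahsg* and *Lect2* the most correlated at 0.84.

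Genes whose levels were most like each member within the groups were looked up among tested genes averaging 10 CPM or more, as a description over 10 livers. The libraries share their scaling, and each gene was picked for its high correlation, so no p is given. For *Fgf21* these were *Tmed4*, a member of the p24 family of the secretory pathway (r = 0.96), *Ldha*, lactate dehydrogenase A (r = 0.95), and *Maged1* (r = 0.94). For *Ahsg* they were *Gpx1* (r = 0.94), *Cth* (r = 0.93) and *Mtmr14* (r = 0.92), and for *Lect2* they were *Cyb5a* (r = 0.91), *Fam234b* and *Odf3b* (r = 0.87 each). For *Inhbc* they were *Crot*, the peroxisomal carnitine octanoyltransferase, and *Rpain* (r = 0.92 each) and *Pop5* (r = 0.91). *Inhbe* had weaker matches, *Eapp* (r = 0.89), *Hjurp* (r = 0.82) and *Cyp3a25* (r = 0.81). For *Fetub* they were *Slc7a2*, a transporter of cationic amino acids (r = 0.93), *Npr2* and *Klf15* (r = 0.91 each). For *Angptl4* they were *Dda1* (r = 0.95), *Maoa* and *Zfp24* (r = 0.93 each). *Inhba* was most like *Rnmt* (r = 0.96), *Scyl3* and *Tbk1* (r = 0.90 each), and *Fst* was like *Trp53inp1* (r = 0.93) and *Zdhhc4* (r = 0.92).

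Genes of the pathways around the members were read from 10 lists, with 137 distinct genes tested. Where a pair of values is given, AAV8-Control stands first. An adjusted p under 0.05 was reached by 0 of them in limma (lowest adjusted p 0.617), and by 0 in edgeR, DESeq2 and limma voom. DESeq2 did not give every gene an adjusted p, and *Nox4* had none. An unadjusted p under 0.05 was reached by 15, or 10.9% of those tested, against the background of 7.95% of all tested genes, with 10 higher and 5 lower. The lists were chosen with earlier results of these data known, so setting these shares side by side is no independent test. Of these 15, 14 are covered by the alternatives, and 9 of the 14 lost the unadjusted p under 0.05 in some alternative. *Smad4*, *Slc3a2*, *Plin2*, *Fabp1* and *Manf* kept it in all of them.

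On the activin side, of 14 tested ligands and binding proteins of the activin and TGF-beta family 0 passed an unadjusted p of 0.05, with a median log2 fold change of 0.07. *Inhbb*, the beta B subunit, was at 4.12 ± 1.69 CPM in AAV8-Control against 5.24 ± 1.56 CPM in treated livers, above *Inhba* in reads but not compared per length here. *Inha*, the inhibin alpha subunit, was at 0 in some libraries of each group and at most 0.0967 CPM. The follistatin-like genes were at 5.70 ± 1.38 and 5.10 ± 0.875 CPM for *Fstl1* and at 0.149 ± 0.0733 and 0.0751 ± 0.0535 CPM for *Fstl3*, which was below the filter. *Tgfb1* was at 8.00 ± 2.14 and 8.54 ± 1.20 CPM and *Gdf15*, a stress-induced member of the family, at 12.1 ± 5.77 and 12.9 ± 3.52 CPM (SD, n = 5 livers per group).

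Of 21 tested receptors and SMADs, 1 had an unadjusted p under 0.05, and the median log2 fold change was 0.12. It was *Smad4*, the common partner of the receptor-activated SMADs, at 23.4 ± 1.26 CPM in AAV8-Control against 28.0 ± 3.54 CPM in treated livers (log2 fold change 0.24, standard error 0.085, unadjusted p = 0.0142 and adjusted p = 0.617 from limma). The type II receptor *Acvr2a* was at 17.2 ± 1.92 and 19.2 ± 2.98 CPM, while *Acvr2b* was at 0.843 ± 0.124 and 1.02 ± 0.301 CPM. Of the type I receptors, *Acvr1b* was at 17.3 ± 2.69 and 18.8 ± 1.83 CPM, and *Acvr1c*, which encodes ALK7, was at no more than 0.337 CPM in any liver. *Smad2* was at 17.1 ± 1.37 and 18.9 ± 1.97 CPM and *Smad3* at 12.0 ± 1.80 and 14.1 ± 3.29 CPM. *Smad7*, an inhibitory SMAD and a target of the pathway, was at 11.2 ± 3.81 and 12.0 ± 4.62 CPM. Of 12 tested SMAD target genes, 1 had an unadjusted p under 0.05, with a median of -0.08. It was *Nox4*, an NADPH oxidase, at 18.4 ± 2.41 and 22.2 ± 2.92 CPM (log2 fold change 0.26, unadjusted p = 0.0290 from limma). The unadjusted p of *Nox4* from limma rose to 0.0818 without treated replicate 4 and to 0.0807 without AAV8-Control replicate 3. *Id1* was at 3.77 to 13.8 and 4.67 to 22.1 CPM.

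On the FGF21 side, of 14 tested receptors and regulators 3 had an unadjusted p under 0.05, all of them higher in treated livers (list median 0.14 on the log2 scale). At that threshold 4.99% of all tested genes were higher, and the list's lowest adjusted p from limma was 0.617. *Fgfr4*, the main hepatocyte FGF receptor, had a log2 fold change of 0.24 (unadjusted p = 0.0402 from limma). The nuclear receptor gene *Rora* had one of 0.29 (unadjusted p = 0.0484 from limma) and the coactivator gene *Ppargc1a* one of 0.44 (unadjusted p = 0.0200 from limma). *Klb*, which encodes beta-Klotho, was at 41.8 ± 5.99 and 45.2 ± 2.71 CPM and *Fgfr1* at 3.53 ± 0.799 and 4.12 ± 0.524 CPM. *Fap*, whose protease inactivates FGF21, was near the limit of detection at 0.145 CPM or less in AAV8-Control and 0.153 CPM or less in treated livers. Of the transcription factors known to act on *Fgf21*, *Ppara* was at 101 ± 9.91 and 99.2 ± 23.8 CPM, *Atf4* at 98.0 ± 12.6 and 111 ± 17.5 CPM, *Mlxipl* at 307 ± 47.8 and 274 ± 55.4 CPM and *Creb3l3* at 209.6 ± 9.98 and 218 ± 31.0 CPM.

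Of 10 tested ATF4 targets, 3 had an unadjusted p under 0.05, all of them higher (list median 0.16 on the log2 scale). The share of all tested genes that were higher at that threshold was 4.99%, and the list's lowest adjusted p from limma was 0.617. *Ddit3*, which encodes the stress factor CHOP, was at 4.76 ± 0.461 and 5.95 ± 1.22 CPM (unadjusted p = 0.0461 from limma). *Slc3a2*, the heavy chain of amino acid transporters, was at 44.1 ± 0.752 and 49.8 ± 3.52 CPM (unadjusted p = 0.0174 from limma). The groups did not overlap for *Slc3a2*. *Cth*, cystathionine gamma-lyase, was at 769 ± 247 and 1132 ± 266 CPM (log2 fold change 0.59, unadjusted p = 0.0205 from limma). Of the others, *Trib3* was at 10.9 ± 4.96 and 12.0 ± 4.71 CPM, and *Asns* and *Chac1* were below the filter, at 0.565 ± 0.136 and 0.721 ± 0.284 CPM and at 0.990 ± 0.303 and 0.638 ± 0.233 CPM.

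*Fgf21* and *Angptl4* are both targets of PPAR alpha, the fatty acid sensor of the liver. Of 17 tested targets of it, 4 had an unadjusted p under 0.05 and all 4 were lower in treated livers (list median -0.12 on the log2 scale). Over all tested genes, 2.97% were lower at that threshold, and the list's lowest adjusted p from limma was 0.617. *Plin2*, which coats lipid droplets, was at 723 ± 150.1 and 508 ± 139 CPM (log2 fold change -0.53, unadjusted p = 0.0151 from limma). *Fabp1*, the liver fatty acid binding protein, was at 2169 ± 460 and 1406 ± 579.8 CPM (log2 fold change -0.70, unadjusted p = 0.0155 from limma). *Cpt1a* was at 381 ± 27.7 and 386 ± 34.3 CPM, *Pdk4* at 19.9 ± 4.60 and 18.1 ± 6.00 CPM, *Cyp4a10* at 1192 ± 133 and 1334 ± 331 CPM and *Cyp4a14* at 2252 ± 264 and 2352 ± 402 CPM.

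**Figure D5:**
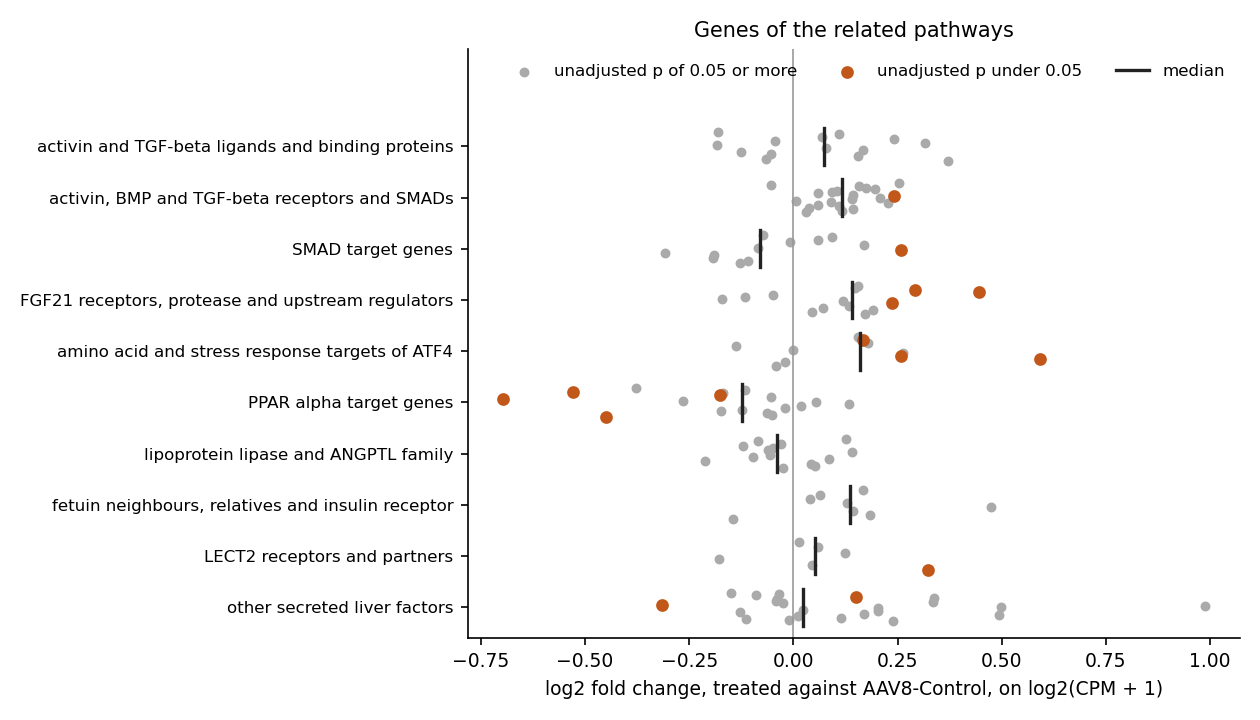
Log2 fold change between treated livers and AAV8-Control of every tested gene in the 10 lists, 1 point per gene, with an unadjusted limma p under 0.05 in orange and the list's median as a black line. The called PPAR alpha targets lie below 0 and the called FGF21 regulators and ATF4 targets above 0. No gene of the lists passed an adjusted p of 0.05 in limma.

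The remaining lists held few such genes. Of 14 tested genes of lipoprotein lipase and the ANGPTL family, 0 had an unadjusted p under 0.05 (median log2 fold change -0.04). There *Angptl8* was at 71.9 ± 23.5 and 62.6 ± 24.7 CPM, *Angptl6* at 8.64 ± 1.20 and 8.89 ± 0.630 CPM, *Lpl* at 15.7 ± 4.13 and 14.6 ± 2.99 CPM, *Gpihbp1* at 22.2 ± 5.40 and 20.8 ± 2.86 CPM and *Lipc* at 122 ± 22.3 and 117 ± 13.5 CPM. Of 8 tested fetuin relatives and receptors, 0 had an unadjusted p under 0.05 (median 0.14). The relatives *Hrg*, *Kng1* and *Kng2* were at 1293 ± 160.5 and 1466 ± 146 CPM, at 1571 ± 95.8 and 1617 ± 119.9 CPM and at 176 ± 16.6 and 184 ± 21.9 CPM. *Insr*, the insulin receptor, was at 89.2 ± 11.7 and 99.2 ± 17.9 CPM and *Tlr4* at 1.23 ± 0.249 and 1.51 ± 0.428 CPM.

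Of 6 tested genes linked to LECT2, 1 had an unadjusted p under 0.05, *Axin2*, a target of WNT signalling, at 6.45 ± 1.01 and 8.36 ± 1.61 CPM (log2 fold change 0.32, unadjusted p = 0.0271 from limma). *Met* was at 65.3 ± 4.08 and 72.0 ± 13.3 CPM, *Tie1* at 12.3 ± 2.59 and 12.3 ± 1.91 CPM and *Glul*, another WNT target, at 745 ± 36.0 and 666 ± 123 CPM, while *Cd209a* was below the filter. Of 23 tested other secreted liver factors, 2 had an unadjusted p under 0.05. *Manf*, a secreted stress protein of the endoplasmic reticulum, was at 54.6 ± 4.59 CPM in AAV8-Control against 43.8 ± 5.80 CPM in treated livers (log2 fold change -0.31, standard error 0.093, unadjusted p = 0.00490 and adjusted p = 0.617 from limma). *Smoc1* was at 134 ± 11.9 and 148 ± 6.62 CPM (log2 fold change 0.15, unadjusted p = 0.0498 from limma). *Igf1*, *Rbp4* and *Selenop* were at 369 ± 48.4 and 376 ± 62.1 CPM, at 2764 ± 205 and 2681 ± 173 CPM and at 7427 ± 606 and 7214 ± 305 CPM. *Igfbp1*, *Igfbp2* and *Fgl1* varied widely, reaching 86.2, 40.2 and 611 CPM in treated livers against 44.6, 30.3 and 176 CPM in controls. *Tsku* was at 185 ± 21.8 and 168 ± 32.1 CPM, *Dpp4* at 147 ± 6.62 and 159.8 ± 13.6 CPM, and *Enho* was below the filter (SD, n = 5 livers per group throughout).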

How the data were processed

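RNA-seq libraries of 5 AAV8-Control and 5 treated livers were grouped by their titles. Per the submitters' processing notes and the study's methods, poly-A selected RNA was sequenced as single 50-base reads, aligned with STAR 2.0.4b to Ensembl release 76 (GRCm38) and counted with featureCounts 1.4.5. The deposited values are CPM, which the authors scaled to all reads counted on genes. Dividing each value by the CPM of 1 read gave whole reads (within 0.01) for 100% of values. Of the 15236 lines, 110 repeat a gene with identical values. The 11027 genes averaging 1 CPM or more were tested on log2(CPM + 1), a scale that understates changes of low genes, with limma 3.58.1 (trended prior, Benjamini-Hochberg). Single values used two-sided exact permutation tests over 252 assignments. The scripts were tested on simulated counts. Alternatives used a pseudocount of 0.1, other filters and scalings, edgeR 4.0.16, DESeq2 1.42.0 and limma voom on the recovered reads, a replicate block, and each library left out. Beside the 9 members, the genes named are preset genes of each list plus up to 3 with the smallest p. The members and lists were chosen with earlier results of these data known. Some genes and the transgene are not reported here by name.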

Additional observations from a re-analysis of the deposited data

Results flagged for a closer look

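In 172 groups of 5 livers, for the 9 members, the pathway genes named and the marker sums, 11 had a liver standing apart by Dixon's test, where chance alone gives about 5% of groups. The 1 member among them was *Fst*, at 3.65 CPM in treated replicate 1 against 1.66 to 2.05 CPM in the others of its group. The same liver was high for *Id1*, at 22.1 CPM against 4.67 to 7.49 CPM, and for *Trib3*, at 20.1 CPM against 7.6 to 11.1 CPM.

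Treated replicate 4 was high for *Nox4*, at 27.3 CPM against 20.1 to 21.3 CPM, and for *Fgfr1*, at 5.03 CPM against 3.74 to 4.09 CPM. Treated replicate 3 was low for *Lipc*, at 92.8 CPM against 122 to 124 CPM, and high for *Fstl3*, at 0.167 CPM, a level of few reads. AAV8-Control replicate 2 was high for *Fstl1*, at 8.09 CPM against 4.72 to 5.65 CPM, for *Cd209a*, at 0.337 CPM, and for the summed markers of stellate cells and fibroblasts, at 315 CPM against 235 to 244 CPM. AAV8-Control replicate 1 was high for *Tsku*, at 223 CPM against 170.1 to 182 CPM.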

How the results depend on the processing

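The direction of 8 of the 9 members held under every alternative run, and that of *Inhba* turned only without AAV8-Control replicate 1 (its log2 fold change ranged from -0.020 to 0.16 over the libraries left out). Of 168 member values under alternatives, 159 kept both direction and side of an unadjusted p of 0.05. *Inhbc* kept an unadjusted p under 0.05 in all 19 alternatives. The count of members with an adjusted p under 0.05 was 0 except in DESeq2's Wald test, where it was 1 (*Inhbc*, 0.0114), and DESeq2 called 17 genes in all against 2 in limma. The count at an unadjusted p of 0.05 ranged from 1 to 3 with each library left out, and the count without overlap from 1 to 2, with *Inhbe* added without treated replicate 4. Pathway genes at an unadjusted p of 0.05 ranged from 8, without AAV8-Control replicate 3 or 5, to 23, without treated replicate 2. Over all genes that number ranged from 470 without treated replicate 5 to 1509 without treated replicate 1. The cause of these differences was not tested.

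The groups share replicate numbers, which pair no animals by the labels. Deviations from the group means correlated at 0.128, 0.209, 0.0751, 0.314 and 0.197 for numbers 1 to 5, all of them positive. Only numbers 2 and 4 correlated best with their own. As the labels name no pairs, the main tests treat the libraries as independent. Whether libraries of the same number share an origin was not tested. With the replicate block, 3 members had an unadjusted p under 0.05 (*Fgf21* at 0.0358 from limma), as did 23 pathway genes, and 5 genes in all had an adjusted p under 0.05. DESeq2's size factors moved the median of all genes from 0.019 to 0.001 and the unadjusted calls from 550 higher and 327 lower to 527 and 456. *Fgf21*, *Inhba* and *Fst* could not be fitted with a filter of 5 CPM, and without group means removed *Ahsg* and *Lect2* had r = 0.62.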
